A study of Mus musculus with 2 samples.

Results

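The small nucleolar and Cajal body RNAs of the mouse adrenal gland were described here as the genes typed snoRNA or scaRNA in the deposited transcript names that held an expected count of 10 or more in both libraries. Of 1558 genes of these types among 55536 annotated genes, 84 met the rule and are called members. The members were selected on measured values, namely the expected counts of these same libraries, so their presence and level are a description and carry no test. By type, 72 members were among the 1507 snoRNA genes and 12 among the 51 scaRNA genes.

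Total RNA for 2 libraries came from female adrenal gland of the mouse strain B6CASTF1/J, whose parents are of the strains C57BL/6J and CAST/EiJ. The age was 36 days, and no treatment was named in the labels. The input was 300 ng of RNA per library, depleted of ribosomal RNA, with ERCC spike-ins and a strand-preserving kit. The libraries form 1 group, replicate 1 and replicate 2, with 35684781 and 38701795 expected counts, so no conditions were compared and no p-value is given. The labels number the animals differently in one field and alike in another, so whether there were 1 or 2 animals is not settled. SDs (n = 2) may therefore measure technical spread only.

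Small nucleolar RNAs are short noncoding RNAs that guide chemical modification of other RNAs. Box C/D RNAs carry a C box near the 5′ end and a D box near the 3′ end and direct 2′-O-methylation by fibrillarin, whereas box H/ACA RNAs end in an ACA box and direct pseudouridylation by dyskerin. The scaRNAs do the same work on spliceosomal RNAs in Cajal bodies, and a few C/D and H/ACA RNAs (U3, U8, U22, U17) act in the cutting of the ribosomal RNA precursor instead. Most are trimmed out of introns of host genes, many of which encode ribosomal or translation proteins.

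The tissue was checked against its markers. All 6 cortex genes and all 5 medulla genes examined were above 1 TPM (a length-corrected relative abundance) in both libraries, and all 4 adipocyte genes were too. The adipocyte genes were high: Fabp4 was at 790 and 749 TPM, Cfd at 416 and 485, Ucp1 at 320 and 257 and Adipoq at 83.0 and 87.8. The medulla genes ran from Dbh at 108 and 83.8 TPM to Chgb at 560 and 395. The labels name adrenal gland, and Star, which moves cholesterol into mitochondria for steroid synthesis, was at 4620 and 4647 TPM. The 5 medulla genes were all lower in replicate 2, with a median log2 ratio of -0.49, and the skeletal muscle gene Acta1 was at 97.6 TPM in replicate 1 and 1.11 in replicate 2. Of the muscle, liver and kidney lists, 1 of 4, 1 of 3 and 0 of 3 genes were above 1 TPM in both. In replicate 1 alone all 4 muscle genes, from 25.2 to 97.6 TPM, and all 3 liver genes were above 1 TPM. The liver gene Alb was at 22.7 TPM in replicate 1 and 1.34 in replicate 2, a log2 ratio of -4.75. The part of these differences in the members' levels was not tested, and in bulk tissue fewer cells of a type and less RNA per cell cannot be told apart.

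Length set a floor under which no gene could be counted. In the gene tables the effective length was the annotated length minus 99 bases for entries of 100 bases or more, and 0 for shorter ones. Every one of the 28583 entries under 100 bases held 0 counts in both libraries. Of the 1558 snoRNA and scaRNA genes, 462 (29.7%) were under 100 bases and so held no measurement, and their 0 says nothing on their level. Of genes of 120 bases up to just under 140 bases, 39 of 830 (4.70%) were members, compared with 23 of 97 (23.7%) from 140 up to just under 200 bases and 22 of 39 (56.4%) at 200 bases or more. No gene from 100 up to just under 120 bases was a member, of 130. Whether length itself accounts for these shares was not tested. The members were 121 to 414 bases long, with a median of 140.5 bases. Of the other 1012 genes of 100 bases or more, 938 held 0 counts in both libraries, where 0 allows up to 3 counts by counting error alone, and 8 genes reached 10 counts in only 1 library.

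**Figure D1:**
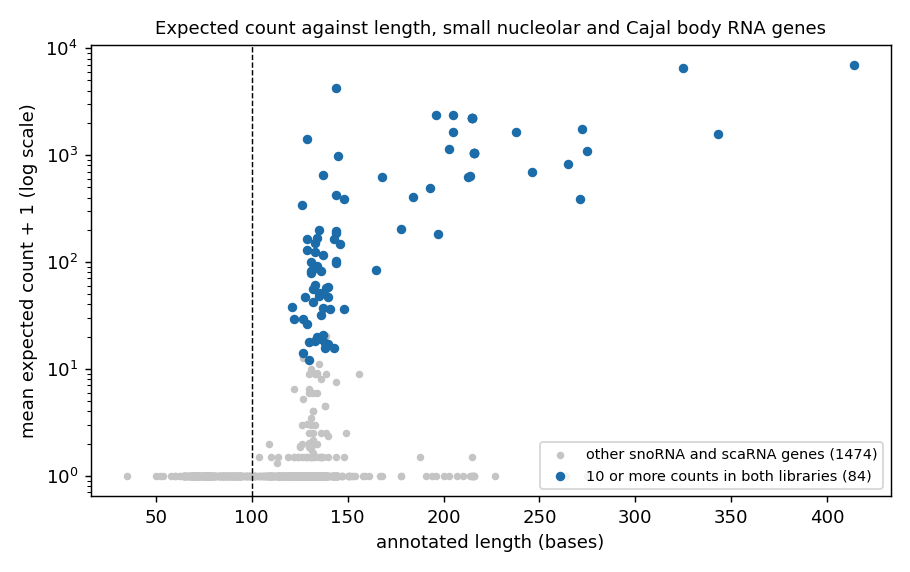
Mean expected count plus 1 of the 2 libraries (log scale) against annotated length in bases, for 84 members (blue) and the other 1474 snoRNA and scaRNA genes (grey). The dashed line stands at 100 bases, and every point to its left lies at 0 counts.

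Just inside the threshold stood Gm23297 at 10 and 16 expected counts in replicates 1 and 2, Gm24888 at 12 and 10, and Snora64 at 10.4 and 27.5. Just outside stood Gm22620 at 9.91 and 24.8, Snora43 at 8.64 and 30, and Gm24289 at 8 and 12. The smaller count of each of these 6 genes lay within counting error of 10, so membership at its edge is not firm.

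By symbol, the 84 members comprised 15 C/D genes (Snord and Rnu3), 20 H/ACA genes (Snora), 5 Scarna genes and 44 genes with no class in their symbol, nearly all Gm numbers. The C/D class lost most to length, since 87 of its 108 genes (80.6%) were under 100 bases. All 15 C/D genes longer than 120 bases were members, compared with 44 of 893 such genes with no class in the symbol. None of the 42 H/ACA genes was under 100 bases, yet 20 were members and 7 held 0 counts in both libraries. Of the 9 Scarna genes, 2 were under 100 bases, and Scarna3b at 9 and 7 counts and Scarna8 at 1 and 4 counts fell short.

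Together the members held 0.153% of all expected counts in each library, 54418 counts in replicate 1 and 59294 in replicate 2. The C/D members held 0.0455% and 0.0490%, the H/ACA members 0.0208% and 0.0200%, the Scarna members 0.0419% and 0.0408%, and the members with no class in the symbol 0.0442% and 0.0434%. By symbol, H/ACA members thus held the lowest share in both libraries, and the other 3 classes lay closer together. This order depends on naming, since 29 of the 44 members with no class hold the H/ACA pattern described below. The 46 members with that pattern held 14172 and 13855 counts. The 10 with the C/D pattern held 13796 and 16446, and the 28 with neither held 26450 and 28993. On a length-corrected scale, CPM per kilobase (the count per 1000000 counts of the library, divided by annotated length in kilobases), the median was 130 for C/D members, 106 for Scarna members, 21.2 for members with no class and 8.62 for H/ACA members. The C/D value rests on how U3 is counted, since 10 of the 15 C/D records are nested or identical U3 records: with these summed per locus the C/D median was 181 over 10 loci, and without U3 it was 72.3 over 5 genes. Both settings were added after the data were seen. CPM per kilobase does not take off the 99 bases that effective length leaves out, so shorter members stand lower on it than in TPM. By deposited TPM, with the U3 records as listed, the medians kept their order in a narrower range. They were 239 for C/D, 165 for Scarna, 68.3 for members with no class and 34.6 for H/ACA.

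A few members held most of the counts. The highest 10 by mean count held 57.4% and 58.4% of the members' counts in replicates 1 and 2, and the highest 20 held 81.0% and 79.3%. By mean count, 20 members reached 1000, another 27 lay between 100 and 1000, and 37 lay under 100.

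**Figure D2:**
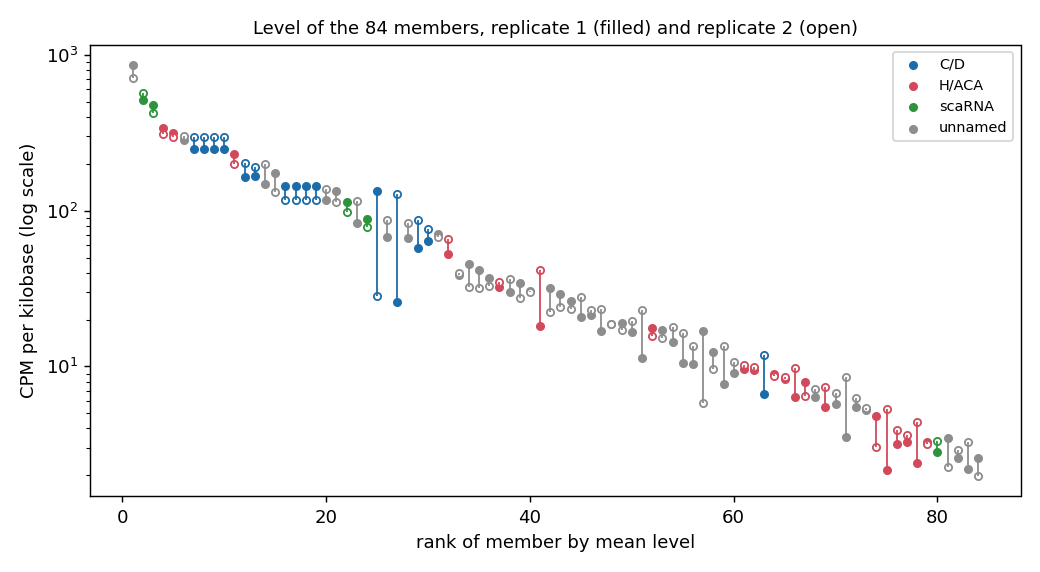
Level of each of the 84 members in CPM per kilobase (log scale), ranked by mean, with replicate 1 filled and replicate 2 open and colours for the class in the symbol. H/ACA members occupy ranks 4 and 5 but mostly the lower end, and the longest vertical lines belong to the nested Rnu3a records.

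Among RNAs of ribosomal RNA processing, the U3 RNAs of the Rnu3 genes were the most abundant. U3 is a C/D RNA that pairs with the ribosomal RNA precursor in the small subunit processome. Its 10 records held 13358 and 15089 counts, or 24.5% and 25.4% of the members' counts. The records are nested: Rnu3a has a record of 214 bases and one of 213 bases at the same start, and each of Rnu3b1, Rnu3b2, Rnu3b3 and Rnu3b4 has a record of 215 and one of 216 bases. The sequences below are shown because this 1-base difference at the 3′ end is all that separates the paired records. The capitals mark the letters TGATGA (box C of textbook C/D RNAs) and the last CTGA (box D). Sequences are 5′ to 3′ from the GENCODE M21 transcripts on mm10, at chr10:40258467-40258680 and chr10:40258467-40258679 (plus strand, Rnu3a) and chr11:87443237-87443451 (plus strand, Rnu3b1).
Rnu3a of 214 bases: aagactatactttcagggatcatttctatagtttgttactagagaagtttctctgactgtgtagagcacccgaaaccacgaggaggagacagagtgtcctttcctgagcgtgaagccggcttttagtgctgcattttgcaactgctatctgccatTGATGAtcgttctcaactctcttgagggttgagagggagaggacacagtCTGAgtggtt
Rnu3a of 213 bases: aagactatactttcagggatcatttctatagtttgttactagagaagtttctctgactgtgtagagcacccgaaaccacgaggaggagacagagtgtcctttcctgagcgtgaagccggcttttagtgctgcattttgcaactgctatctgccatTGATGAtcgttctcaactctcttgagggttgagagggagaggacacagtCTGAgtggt
Rnu3b1 of 215 bases: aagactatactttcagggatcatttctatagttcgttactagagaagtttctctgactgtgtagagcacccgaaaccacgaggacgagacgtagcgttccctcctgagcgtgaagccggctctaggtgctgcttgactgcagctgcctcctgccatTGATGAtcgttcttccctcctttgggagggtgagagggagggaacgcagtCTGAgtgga

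The nested Rnu3a records exchanged their counts between libraries. The record of 214 bases held 1024 counts in replicate 1 and 234 in replicate 2, a log2 ratio of -2.27, while the record of 213 bases held 198 and 1047 counts, a log2 ratio of 2.26. Summed, the Rnu3a records held 1222 and 1281 counts, a log2 ratio of -0.07, so the locus as a whole differed little. The posterior SDs that the tables give for the Rnu3a records were 166 counts in replicate 1 and 255 in replicate 2.

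The Rnu3b records gave the same picture across loci. The 4 records of 215 bases have identical sequence and each was listed at 1920 and 2480 counts. The 4 records of 216 bases each stood at 1114 and 972 counts. The tables thus divided the reads evenly over the copies, with posterior SDs of up to 1044 and 1170 counts, and no level can be given to a single Rnu3b copy. All 8 records summed to 12136 and 13808 counts, 9.93 and 10.8 times the Rnu3a sum, at a log2 ratio of 0.04. Rnu3a and Rnu3b sequences were 85.1 to 85.6% identical.

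Snora73a and Snora73b (U17), H/ACA RNAs that act in processing at the 5′ end of the small subunit RNA, held 1693 and 1577 counts and 2318 and 2371 counts. Both lie in the noncoding gene Snhg3 and are 96.6% identical. Snora73b was the higher of the pair in both libraries, at 317 and 299 CPM per kilobase against 231 and 198.7. Gm26448, in an intron of the ribosomal protein gene Rpsa, is 88.3% identical to Snora73a and held 1264 and 1034 counts.

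Snord22 (U22), within Snhg1, held 258 and 425 counts. Snord118 (U8), which acts in large subunit processing and has no host gene, held only 32 and 62 counts. Snora62, of 149 bases, was not a member at 1 and 2 counts. Snord13 at 0 and 1 counts was not a member either, but at 104 bases it could hardly be counted. The 4 Snord14 genes, of 86 to 90 bases, could not be counted. The abundance of U3 and U17 was therefore not shared by Snord118 and Snora62. By mean TPM, which divides by effective length, Snord118 stood at 34.6, compared with 336 for Snord22, 414 for Snora73a and 592 for Snora73b. Snord118 is shown because, like U3, it holds its TGATGA away from the 5′ end. It lies at chr11:69073427-69073561 on the plus strand of mm10.
Snord118: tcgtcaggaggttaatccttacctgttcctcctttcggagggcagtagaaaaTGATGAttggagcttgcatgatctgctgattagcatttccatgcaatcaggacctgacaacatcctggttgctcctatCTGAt

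The Cajal body RNAs included the members with the highest counts. Scarna2, which guides modification of the U2 spliceosomal RNA and is the longest member at 414 bases, held 7050 and 6812 counts, or 451 ± 36.8 CPM per kilobase (SD, n = 2). It lies outside any same-strand host gene. Scarna10, within Ncapd2, held 5932 and 7110 counts and 538 ± 38.1 CPM per kilobase, although the files type it as a snoRNA. Scarna2 was the higher by count in replicate 1 and Scarna10 in replicate 2, so their order by count is not settled, while per kilobase Scarna10 was the higher in both. These levels depend on the annotated length: the RefSeq records (GRCm38.p6) at these places span 61 bases for Scarna2 and 71 bases for Scarna10, compared with 414 and 325 bases in GENCODE.

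Scarna13, in the noncoding gene Snhg10, held 1120 and 1044 counts. Scarna6 held 835 and 810 counts. Scarna3a, in an intron of Cop1, was close to the threshold at 14 and 18. The 5 Scarna members therefore spanned nearly the whole range of the 84, and their median log2 ratio between libraries was -0.19, with 2 of 5 higher in replicate 2. A further 8 genes typed scaRNA have only Gm numbers. The highest were Gm25395 at 1448 and 2091 counts and Gm22009, in an intron of Kpna4, at 1629 and 1504, and the lowest was Gm25820 at 25 and 31.

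Scarna6 and Gm25395 lie in different introns of Atg16l1, an autophagy gene, and are shown because they share their first 12 and last 8 letters but are 61.4% identical overall. Gm25395 was the higher in both libraries, by 1.69-fold and 2.52-fold per kilobase. Capitals mark TGATGA and CTGA. Scarna6 lies at chr1:87784556-87784820 and Gm25395 at chr1:87776938-87777209, both on the plus strand of mm10.
Scarna6: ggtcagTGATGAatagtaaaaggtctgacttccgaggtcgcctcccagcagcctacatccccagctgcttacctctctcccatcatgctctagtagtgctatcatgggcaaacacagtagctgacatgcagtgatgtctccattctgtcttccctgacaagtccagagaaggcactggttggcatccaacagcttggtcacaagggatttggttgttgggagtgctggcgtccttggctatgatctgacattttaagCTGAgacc
Gm25395: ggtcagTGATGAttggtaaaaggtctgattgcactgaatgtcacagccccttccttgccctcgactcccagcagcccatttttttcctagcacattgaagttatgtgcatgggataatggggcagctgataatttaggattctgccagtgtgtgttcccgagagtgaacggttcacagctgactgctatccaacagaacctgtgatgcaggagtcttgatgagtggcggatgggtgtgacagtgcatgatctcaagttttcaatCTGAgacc

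The highest member per kilobase was a gene with no class in its symbol. Gm22988, overlapping an exon of Eif4a1, held 4414 and 3979 counts and 859 and 714 CPM per kilobase. In the deposited TPM it was also first, at 2503 ± 307. Gm26447, overlapping an exon of Eif4a2, held 1303 and 1496 counts. It ranked 6 per kilobase and 2 by TPM, at 283 and 300 CPM per kilobase and 1247 TPM. TPM divides by the effective length, which for an RNA of 129 bases is 30 bases, so the shortest members stand higher on that scale. Across the 84 members the order by TPM and the order per kilobase had a Spearman rho of 0.98, given as a description.

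H/ACA members had a wide range. Snora74a was the highest, at 2372 and 2354 counts and 339 and 310 CPM per kilobase, followed by Snora73b and Snora73a. Snora23, in an intron of the import receptor gene Ipo7, held 348 and 467 counts, Snora81 held 115 and 286, and Snora44, inside Snhg12, held 150 and 173. The remaining 14 H/ACA members lay under 100 counts in both libraries. Among C/D members outside U3, Snord17, in an intron of Snx5, held 1394 and 1859 counts, and Snord15b and Snord15a, both in Rps3, held 864 and 1077 counts and 336 and 436 counts. Each of these 3 C/D genes was higher in replicate 2.

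The imprinted snoRNA clusters gave no value. On chromosome 7 the files hold 210 such snoRNA genes of 67 to 94 bases, 208 of them inside Snhg14, where 17 carry a Snord116 symbol, with Snord64 and Snord107 outside it. On chromosome 12 they hold 13, of 71 to 75 bases, all inside Rian. All 223 are under 100 bases, all hold 0 counts in both libraries and in both quantifications, and none is a member. The hosts themselves were measured: Rian stood at 125 and 116 TPM and Snhg14 at 1.37 and 1.56. Meg3 and Mirg, noncoding genes of the same imprinted region as Rian that hold none of these 13 genes, stood at 155 and 132 TPM and at 8.68 and 6.77. The host transcript Rian was thus readily measured in this gland, while the snoRNAs inside it could not be assessed from these tables.

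The letters of the members were read for features that the rule did not use. A C/D pattern was taken as TGATGA within the first 25 bases together with CTGA within the last 15 bases, and an H/ACA pattern as ACA with 3 bases after it at the 3′ end, on the transcript strand only. The H/ACA pattern was present in 46 of 84 members (54.8%), compared with 23.3% of the other genes of 100 bases or more and 19.3% of all 1558 genes. The C/D pattern was present in 10 members (11.9%), compared with 0.692% of the other genes of 100 bases or more, 63.6% of genes under 100 bases and 20% of all. No member held both, and 28 held neither, among them the U3 records, Snord118 and Scarna2. Of the 44 members with no class in the symbol, 29 held the H/ACA pattern and 5 the C/D pattern. Members with the H/ACA pattern had a median of 14.8 CPM per kilobase, compared with 125 for the C/D pattern and 75.9 for neither. Their median lengths were 136, 251.5 and 187 bases, and shorter members stand lower on this scale than in TPM. A match is a description of the letters, not a tested site.

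Most members lie inside a host gene. Of the 84, 77 lie within a gene on the same strand, 48 of them in an intron only and 29 overlapping an exon of at least 1 annotated host transcript, and 7 have no same-strand host. The 77 fall in 59 host genes, 18 members lie in genes of ribosomal proteins or translation factors, and 11 lie in Snhg genes or Dancr. The 8 Rnu3b records lie inside Tex14, a germ cell gene listed at 0.215 TPM on average, while U3 RNAs are known to be transcribed from their own promoters. Whether the counting used strand is not given in the sources used here, and for the members that overlap a host exon, reads of host and member cannot be told apart. The same holds for 5 members that lie opposite a gene on the other strand, Snora73a, Snora73b, Snora23, Snora78 and Snora57.

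Members of the same host differed widely in level in some hosts and little in others. Eif4a1, an mRNA helicase gene at 195 and 216 TPM, holds Gm22988, Gm25835 and Gm24029. Gm22988 held 859 and 714 CPM per kilobase, Gm25835 held 67.7 and 87.4, and Gm24029 held 2.59 and 2.89. The highest stood 332-fold over the lowest in replicate 1 and 247-fold in replicate 2. Gm22988 and Gm24029 overlap an exon of Eif4a1, so host reads cannot be told apart from theirs, while Gm25835 lies in an intron. The sequences are shown for this contrast within 1 host, with ACA or TGATGA and CTGA in capitals. They lie on the minus strand of mm10 at chr11:69669635-69669778, chr11:69668852-69668995 and chr11:69667834-69667976.
Gm22988: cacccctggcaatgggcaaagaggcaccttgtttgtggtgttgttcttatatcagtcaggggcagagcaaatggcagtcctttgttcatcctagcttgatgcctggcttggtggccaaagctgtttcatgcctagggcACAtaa
Gm25835: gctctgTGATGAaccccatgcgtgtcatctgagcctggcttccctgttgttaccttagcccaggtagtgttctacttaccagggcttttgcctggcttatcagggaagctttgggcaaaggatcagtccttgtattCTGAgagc
Gm24029: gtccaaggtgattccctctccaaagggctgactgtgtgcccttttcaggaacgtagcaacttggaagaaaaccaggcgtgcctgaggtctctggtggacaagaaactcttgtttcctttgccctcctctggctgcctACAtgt

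Narrower gaps were seen in other hosts. In Snx5, Snord17 stood 47.5-fold and 89.8-fold over Gm26165 in replicates 1 and 2 per kilobase. By TPM this gap was narrower, at 278 and 346 for Snord17 and 12.1 and 7.95 for Gm26165, with lengths of 238 and 138 bases. In the gene named AC121821.1, Snora74a stood 53.0-fold and 43.5-fold over a snoRNA-typed entry with the symbol Mir1949. In Eif4a2, Gm26447 stood 37.0-fold and 22.1-fold over Gm24616, and in Snhg12, Snora44 stood 9.92-fold and 9.57-fold over Snora61. The members named in AC121821.1, Eif4a2 and Snhg12 all overlap a host exon, so host reads cannot be told apart from theirs. By contrast, Gm25788 and Gm22154 in Pabpc4, which are 96.9% identical, differed by 1.01-fold in replicate 1 and 1.53-fold in replicate 2, in opposite directions. The pairs in Rps3, Atg16l1 and Snhg3 were also close, with mean levels 2.57-fold, 2.08-fold and 1.43-fold apart. In 8 of the 9 hosts with more than 1 member, all but Pabpc4, the highest and the lowest member were the same in both libraries.

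**Figure D3:**
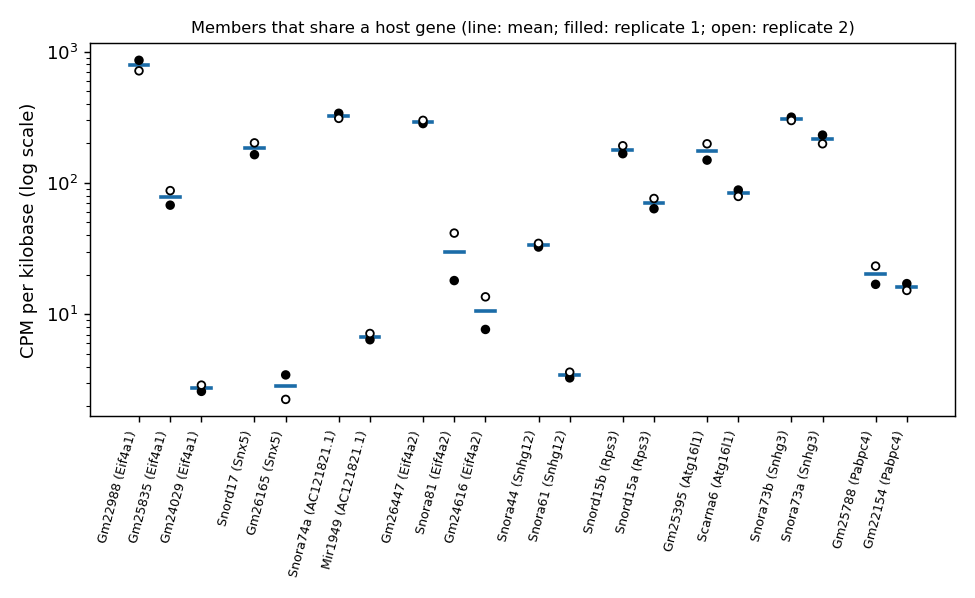
Level in CPM per kilobase (log scale) of the members that share a host gene, with the host in brackets, the mean as a line, replicate 1 filled and replicate 2 open. The Eif4a1 members span the widest range and the Pabpc4 members the narrowest.

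Several members of middle level lay in protein-coding genes of housekeeping function. Gm24119, in an intron of the mitochondrial phosphate carrier gene Slc25a3, held 590 and 793 counts. Gm22486, inside Ptcd3, held 571 and 735 counts and is named Snord94 in RefSeq. Gm23262, inside the translation gene Eif4g2, held 503 and 754 counts, and Gm23547, inside the prohibitin gene Phb2, held 439 and 337. The first 3 were higher in replicate 2 and Gm23547 was lower. The tables give a posterior SD of 0 in both libraries for 42 of the 84 members, and one above 10% of the count in either library for 16, the 10 U3 records among them.

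Host level and member level had no clear common order. Over 40 members in introns, without the Rnu3b records, the log2 level per kilobase and the log2 host TPM had a Pearson r of -0.07 and a Spearman rho of -0.14. These points share libraries, and some share a host. Among these intronic members, Gm25835 in Eif4a1, at a host mean of 206 TPM, held 67.7 and 87.4 CPM per kilobase. Gm25395 in Atg16l1, at a host mean of 9.19 TPM, held 149.2 and 198.6. By deposited TPM Gm25835 and Gm25395 were closer, at means of 247 and 272, with lengths of 144 and 272 bases.

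Near-identical members differed widely in level in some families and little in others. At 80% identity or more, 26 members fell into 7 families, and the 84 records had 78 distinct sequences. By mean level per kilobase, the highest stood 43.3-fold over the lowest in the family of Gm22988 and 13.8-fold in that of Snora70. In the remaining families this gap was 1.24-fold to 3.58-fold. Gm22988 has 3 relatives at this identity, Gm25291 in Sec24a (97.2% identical), Gm24727 in Gsr (93.8%) and Gm25117 in Nap1l1 (91.0%). Gm22988 held 859 and 714 CPM per kilobase, compared with 41.5 and 31.9 for Gm25291, 18.7 and 18.7 for Gm24727 and 19.1 and 17.2 for Gm25117. The posterior SDs of these 4 genes were at most 1.92 counts, so the tables assign few of their reads in doubt. However, Gm22988 overlaps an exon of Eif4a1, while its 3 relatives lie in introns. Reads of Eif4a1 and Gm22988 cannot be told apart there, and their part in this gap was not tested. Gm25291 lies at chr11:51737779-51737922 (minus strand) and Gm24727 at chr8:33691801-33691944 (plus strand). They can be set against Gm22988 above, with ACA in capitals.
Gm25291: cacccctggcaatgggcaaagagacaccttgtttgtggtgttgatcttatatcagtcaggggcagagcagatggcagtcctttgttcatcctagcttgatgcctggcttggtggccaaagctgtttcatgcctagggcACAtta
Gm24727: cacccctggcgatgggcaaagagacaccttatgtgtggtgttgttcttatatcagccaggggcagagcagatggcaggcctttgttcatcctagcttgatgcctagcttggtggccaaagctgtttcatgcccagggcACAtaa

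The libraries were then set side by side. Across the 84 members the log2 counts of replicate 1 and replicate 2 had a Pearson r of 0.97. After TMM scaling the members' median log2 ratio of replicate 2 over replicate 1 was 0.08, with 49 of 84 higher in replicate 2, and over all 16543 genes that reached 10 counts in each library it was -0.00. The SD of the log2 ratio was 0.57 over members and 0.41 over all genes. By class the median was 0.23 for C/D, 0.05 for H/ACA, -0.19 for Scarna and 0.07 for members with no class. The C/D value is that of the repeated Rnu3b records of 215 bases. With U3 summed per locus it was 0.11 over 10 loci, and without U3 it was 0.27 over 5 genes.

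Between the libraries, 7 of 84 members (8.33%) were 2-fold or more apart, compared with 2.33% of all genes. Of these, 5 (5.95%) were higher in replicate 2, against 1.06% of all genes, and 2 (2.38%) were lower, against 1.27%. Among members with 200 or more summed counts, 3 of 47 (6.38%) were 2-fold apart, against 0.791% of such genes, and these 3 were the nested Rnu3a records and Snora81. At 1.5-fold the count was 13 of 84 (15.5%), against 8.34% of all genes. At a minimum of 1 count in both libraries, 18 of 120 snoRNA and scaRNA genes (15%) were 2-fold apart, against 11.1% of all genes, and at a minimum of 50 it was 4 of 56 (7.14%), against 0.637%. With the nested U3 records summed per locus, a step added after the data were seen, 5 of 79 were 2-fold apart, against 2.33% of all genes.

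Snora81, inside Eif4a2, held 115 and 286 counts, a ratio of 2.26 with an exact 95% interval of 1.81 to 2.82 for counting error only. Its host fell the other way, at a log2 ratio of -0.17, and the other members in Eif4a2 were Gm26447 at 0.06 and Gm24616 at 0.80. Gm23925, inside Snhg17, held 79.1 and 29.8 counts, a ratio of 0.341, but its posterior SDs were 24.6 and 20.9 counts. Gm26493 in Cnot1 at 17 and 45 counts, Snora64 in Rps2 at 10.4 and 27.5, and Gm22270 in Rpl5 at 53 and 117 rest on few counts, and Gm22270 lies right at 2-fold. Snora9, under 2-fold at 11.4 and 22.7 counts, lies in Snhg15, whose own log2 ratio was 1.08, the only host with a ratio that was 2-fold apart.

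After these, the highest ratios were those of Snora9, Snord118 at 32 and 62 counts (log2 0.81) and Gm24616 at 38 and 73 counts (0.80). At the low end came Snora70 in Rpl10 at 23.6 and 16.2 counts (-0.69), Gm26165 at 17 and 12 (-0.64), Gm24336 in Cwf19l1 at 165 and 126 (-0.53), Gm23547 at 439 and 337 (-0.52), Gm26448 at 1264 and 1034 (-0.43) and Gm24888 at 12 and 10 (-0.41). Among these, Gm26448 had the most counts, and its exact interval for the ratio was 0.682 to 0.805. Its relatives Snora73a and Snora73b were also lower in replicate 2, at log2 ratios of -0.25 and -0.11.

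**Figure D4:**
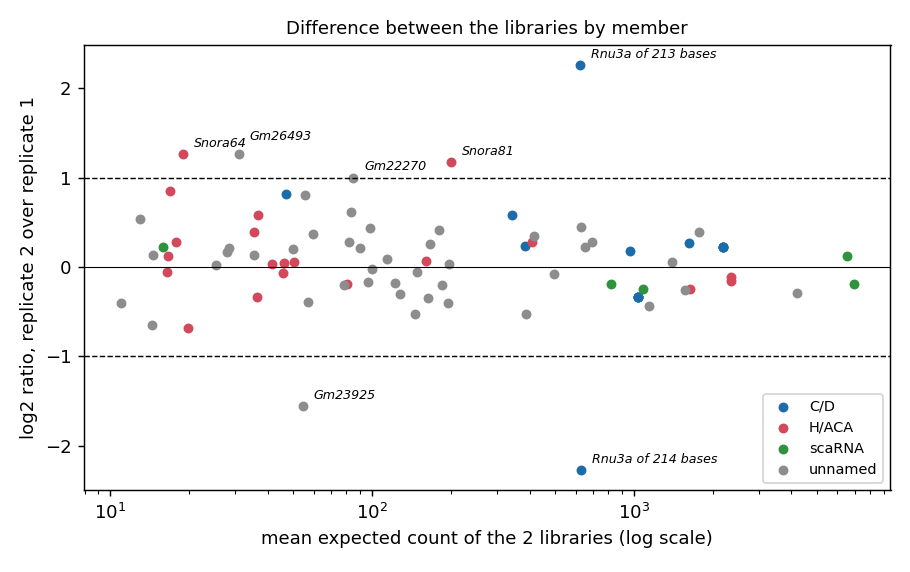
Log2 ratio of replicate 2 over replicate 1 after TMM scaling against mean expected count (log scale) for the 84 members, with colours for the class in the symbol, dashed lines at 2-fold and names for the 7 members beyond them. The Rnu3a records lie at 2.26 and -2.27, as mirror images.

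The read-derived quantification gave nearly no counts for these RNAs. Its estimated count was 0 in both libraries for 81 of 84 members (96.4%), against 1.80% of all 16543 genes. The members not at 0 were Scarna2 at 1752 and 1980 estimated counts, Gm22009 at 337 and 287, and Scarna10 at 2 and 2, which are the only members of 300 bases or more. As a share of each table, 84 of 84 members were 2-fold or more below the gene table, against 3.72% of all genes, and 0 were 2-fold above, against 1.32%. A like share was found in other short genes: of those under 300 bases, 85 of 90 (94.4%) were at 0, compared with 132 of 16369 (0.806%) of the other genes of 300 bases or more. Every level given here for a member under 300 bases therefore rests on the gene tables alone. The levels of the 3 longer members were not borne out by the read-derived counts either. Their expected counts were 5932 and 7110 for Scarna10, 7050 and 6812 for Scarna2, and 1629 and 1504 for Gm22009.

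The proteins that carry these RNAs were measured beside them. The C/D core genes were Fbl (fibrillarin, the methyltransferase) at 31.6 and 28.0 TPM, Nop56 at 26.0 and 28.8, Nop58 at 33.1 and 28.5, and Snu13 at 27.1 and 26.9. The H/ACA core genes were Dkc1 (dyskerin, the pseudouridine synthase) at 12.8 and 15.4 TPM, Nhp2 at 24.6 and 23.5, Nop10 at 45.0 and 45.5, and Gar1 at 17.5 and 14.8. Their medians were 28.6 TPM for C/D and 20.1 TPM for H/ACA. None of the 8 was 2-fold apart between the libraries, where the share over all genes was 2.33%.

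Every listed gene of assembly, Cajal bodies and processing that had a record was detected. No record was found under the listed symbols Nopchap1, Znf473 and Papd5, nor for the noncoding hosts Snhg4, Snhg7 and Snhg16, and these are left out of the counts below. At 1 TPM or more in both libraries were 11 of 11 assembly genes, led by Pih1d1 at 21.2 and 23.4 TPM, Ruvbl2 at 13.8 and 15.3 and Ruvbl1 at 10.6 and 9.85, and 10 of 10 Cajal body genes, led by Nolc1 at 14.2 and 12.8, Sart3 at 8.73 and 10.1 and Usp39 at 9.60 and 8.95. Coil, the scaffold of Cajal bodies, was at 3.36 and 3.26 TPM, and Wrap53, which brings scaRNAs there, at 3.11 and 2.95. The list of trimming and cap genes also holds RNA-binding and export genes, and 17 of 17 were detected. It was led by Ssb, an RNA-binding protein gene, at 56.3 and 53.2, the export receptor gene Xpo1 at 20.9 and 20.2, and Xrn2 at 16.1 and 19.1. U3 processome genes were detected in 19 of 19, led by Imp3 at 31.2 and 32.3, Imp4 at 21.03 and 18.82 and Nol6 at 17.99 and 17.63. In these 4 lists 0 genes were 2-fold apart, which is close to the share over all genes, 2.33%. On the list of noncoding hosts 21 genes were detected. Of 20 with a ratio, 1 was 2-fold higher in replicate 2, against 1.06% of all genes, namely Snhg15 at 2.12 and 4.33 TPM. The list also holds Snhg11, typed protein-coding, and Meg3 and Mirg, which hold none of the imprinted snoRNA genes above. Other noncoding RNAs were listed for comparison, and of Terc, Rmrp, Rpph1 and Rn7sk 0 were 2-fold apart, against 2.33% of all genes. Terc, the telomerase RNA, which has an H/ACA end, was at 13.3 and 10.8 TPM, and Rmrp, the RNA of the RNase MRP enzyme, at 5997 and 3814. Rpph1, the RNase P RNA, was at 7273 and 7449 TPM, and Rn7sk, which regulates transcription elongation and is no guide RNA, at 42673 and 34948. Gas5, which hosts many C/D RNAs that are under 100 bases, was at 91.9 and 77.8 TPM.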

How the data were processed

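Deposited tables for 2 adrenal libraries were used. The gene tables hold an expected count, a posterior SD of the count and TPM, per the file headers. The deposited notes beside them name mm10 and GENCODE M21. The read-derived table holds an estimated count per transcript, per the file headers, and was summed by gene. Aligner, versions, filters and strand setting were not given in the sources used here. An effect of CAST alleles on alignment was not tested.

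Members needed 10 or more expected counts in both libraries, whose totals were 35684781 and 38701795. The members and lists were chosen with earlier results of these data known. Classes came from symbols. Levels were CPM per kilobase of annotated length. Ratios used expected counts divided by TMM-scaled totals (edgeR 4.0.16, R 4.3.3; factors from counts rounded to whole numbers), with DESeq2 1.42.0 size factors, library totals and the deposited TPM as alternatives, and a 2-fold difference was described without a test. With a single group no model was fitted and no p-value was made. Intervals are exact (Clopper-Pearson, 95%) and cover counting error only, as does the limit of 3 counts for 0. Hosts, coordinates and sequences are from GENCODE M21 on mm10. Genes named are the 20 highest by count, 10 highest per kilobase, all Scarna members, imprinted genes, RNAs of ribosomal RNA processing, the highest and lowest 8 ratios, the 5 largest differences each way between quantifications (81 members tie at 0), the 3 on each side of the threshold, core proteins and 3 genes of each other list (some by range). Same-host members, near-identical relatives and members of middle level were named after their values were seen. Python 3.11.15, pandas 2.3.3, scipy 1.17.1 and matplotlib 3.10.9 were used.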

Additional observations from a re-analysis of the deposited data

How the results depend on the processing

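The number of members was 84 in the gene tables and 2 by the read-derived estimated counts, and it stayed within 1.5 times at minimums of 1 (120) and 50 (56). With nuclear protein-coding counts as the denominator, the members' share was 0.238%, and those of C/D, H/ACA, Scarna and other members were 0.0736%, 0.0318%, 0.0645% and 0.0683%. By read-derived counts these 5 shares were 0.00601%, 0%, 0%, 0.00515% and 8.64e-04%. With every snoRNA and scaRNA gene, all together held 0.153%. The median level, 3.98 CPM, ran from 3.60 to 3.91 when 1 library was left out. Members 2-fold apart numbered 18 of 120 at a minimum of 1 (11.1% of all genes), 4 of 56 at a minimum of 50 (0.637% of all genes), 3 of 47 at 200 summed counts, 0 of 2 by read-derived counts and 13 of 84 at 1.5-fold. DESeq2 size factors, library totals and deposited TPM left the count at 7 and the side of 2-fold of all 84 members. The median log2 ratio was -0.03 at 200 summed counts and -0.16 by read-derived counts, so its sign is not firm. The cause of these shifts was not tested. No paired analysis was possible because the libraries form 1 group. Counts under 100 on average limit the precision of 37 members.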
